A study of Mus musculus with 2 samples.

Results

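The genes described here are 39 core interferon-stimulated genes, a list chosen by gene symbol, out of 34097 genes listed for 2 mouse tumours. All 39 symbols were found. The tumours were labelled as xenografts of LLC, the mouse Lewis lung carcinoma line, and each gave 1 single-cell library on the 10x Genomics platform. One tumour, named NC in its title, was a control, and the other, named SH, carried a short hairpin RNA against Gfpt2, an enzyme that feeds the hexosamine pathway. They are called the control and the knockdown library. Neither the number of hairpins or clones, the host strain, the age of the animals nor the content of the control is given in the sources used here, and both tumours share the LLC line. The series' design asks about immune cells and signalling between cells in such tumours. With 1 library per group no difference could be set against a spread between tumours, so no test was run, and every 95% interval covers counting error only.

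Type I interferons, among them Ifnb1, bind a receptor made of Ifnar1 and Ifnar2, and the kinases Jak1 and Tyk2 then phosphorylate Stat2. With Irf9 it becomes part of a complex that binds the interferon-stimulated response element in the promoters of target genes. Interferon gamma, made mainly by T and NK cells, acts through a different element, the gamma-activated site. The products of the target genes sense foreign nucleic acid, degrade or modify it, block virus entry and release, or feed back on the pathway, and tumour macrophages are a known source of both the interferons and the response.

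Promoter sequences of RefSeq, build GRCm38.p6, show what many of these genes have in common outside the measured values. Windows from 250 bases before to 50 bases after the annotated start were listed for 28 of the 39 members, and not for Oas2, Dhx58, Zbp1, Ifi204, Usp18, Parp9, Parp14, Mx1, Mx2, Rtp4 and Ifi27l2a. The letters GAAANNGAAA, the core of the response element, were searched on both strands and occurred in 11 of the 28 members (39.3%), against 3.99% of the 27025 genes in the table. The letters TTCNNNGAA, the gamma-activated site, which read the same on both strands, occurred in 8 members (28.6%), against 9.55% of all genes. A match is a description of the sequence and not a bound site. The 250 bases before the start are shown for 3 members whose element lies upstream, and for Oasl1, one of the members with a large ratio between the libraries, which holds no match in its window. Each is written 5′ to 3′ on the gene's strand, with the element in capitals.

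Isg15, chr4:156200819-156201068, minus strand: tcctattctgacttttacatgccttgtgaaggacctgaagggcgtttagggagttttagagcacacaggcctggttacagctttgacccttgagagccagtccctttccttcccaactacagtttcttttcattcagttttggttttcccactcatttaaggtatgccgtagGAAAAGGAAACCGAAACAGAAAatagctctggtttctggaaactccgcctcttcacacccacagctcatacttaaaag

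Rsad2, chr12:26456453-26456702, minus strand: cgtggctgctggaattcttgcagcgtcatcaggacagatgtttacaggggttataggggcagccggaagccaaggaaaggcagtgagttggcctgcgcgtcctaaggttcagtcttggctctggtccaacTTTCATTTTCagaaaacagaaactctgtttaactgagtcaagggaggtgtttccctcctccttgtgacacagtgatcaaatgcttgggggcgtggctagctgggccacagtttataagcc

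Bst2, chr8:71537473-71537722, minus strand: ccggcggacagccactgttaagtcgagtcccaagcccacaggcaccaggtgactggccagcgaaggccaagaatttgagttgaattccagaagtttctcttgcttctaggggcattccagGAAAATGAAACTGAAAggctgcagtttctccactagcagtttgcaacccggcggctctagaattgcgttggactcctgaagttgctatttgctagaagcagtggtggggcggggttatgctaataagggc

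Oasl1, chr5:114922990-114923239, plus strand: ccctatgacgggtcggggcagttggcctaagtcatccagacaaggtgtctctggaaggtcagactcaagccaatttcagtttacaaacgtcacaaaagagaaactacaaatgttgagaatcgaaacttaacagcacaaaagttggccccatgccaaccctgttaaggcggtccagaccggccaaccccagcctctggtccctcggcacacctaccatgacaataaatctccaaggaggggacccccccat

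The capitals in Isg15 (ENSMUSG00000035692) cover 3 overlapping matches, which begin 78, 72 and 66 bases before the start. Bst2 (ENSMUSG00000046718) had 2 overlapping matches that begin 130 and 124 bases upstream, and Rsad2 (ENSMUSG00000020641) had 1, written on the opposite strand, at 120 bases upstream. Stat2, Oas1a, Oas3, Trim30a and Slfn5 also held a match before the start, whereas those of Ifih1, Eif2ak2 and Ifitm3 lay after it. Of the members with an entry, 17 held none, among them Irf7, Irf9, Cmpk2, Oasl1 (ENSMUSG00000041827) and Oasl2.

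Cells were sorted into 4 classes by fixed rules on their UMIs, the unique molecular identifiers that each tag 1 captured RNA molecule. Macrophages carried at least 10 UMIs of the complement genes C1qa, C1qb and C1qc per 10000, and monocytes at least 20 of Lyz2 per 10000 with C1q under 5. T cells carried at least 2 UMIs of Cd3d, Cd3e and Cd3g, and tumour-like cells had no UMI of the leukocyte gene Ptprc, under 5 Lyz2 per 10000 and at least 5000 UMIs. The control library gave 3857 macrophages, 144 monocytes, 650 T cells and 4959 tumour-like cells, and the knockdown library 4392, 39, 531 and 5163. Median UMIs per cell were 5421, 3267, 2775 and 18744 in the control classes and 3934, 2395, 2558 and 14709 in the knockdown classes. Levels are given as UMIs per 1000000 UMIs of the class (CPM), with the control value first wherever a pair is given. They are not divided by gene length, since each UMI tags 1 molecule.

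Gfpt2, the check of the labels, had 244 UMIs in all kept control cells (1.76 CPM) and 68 in all kept knockdown cells (0.574 CPM). In tumour-like cells it was at 1.99 and 0.655 CPM, a log2 ratio of -1.60 (-2.05 to -1.17). The 11 T cell markers summed to 3264 and 3562 CPM in T cells, which also held NK cell markers at 764 and 642 CPM. Krt8, Krt18 and Epcam were nearly absent from tumour-like cells (0.0874, 0.00971 and 0.0388 CPM in the control library), and Hmga2 stood at 219.99 and 218 CPM. The 7 tumour-like markers summed to 488 and 487 CPM there, below the 686 and 613 CPM of monocytes, while 6 fibroblast markers summed to 2564 and 2861 CPM. The class is therefore called tumour-like by its rule only. Xist was at 2.61 and 3.41 CPM in it, against 499.9 and 398 CPM in macrophages and 522 and 542 CPM in T cells. What this says of the origin of the cells was not tested. Control monocytes held 7 neutrophil markers at 1250 CPM in sum, against 68.1 CPM in knockdown monocytes, with S100a9 at 605 and 0 CPM, so the monocyte classes of the libraries differ in makeup. The libraries shared 37 cell barcodes.

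Macrophages of the knockdown library carried more RNA that is abundant in tumour-like cells. It was gauged by Dcn and Col3a1, matrix genes that are also fibroblast markers, and Hmga2, called the matrix gauge here. These genes summed to 297 CPM in control and 818 CPM in knockdown macrophages, and 30.4% of knockdown macrophages, against 10.6% of control ones, held at least 5 of these UMIs per 10000. Macrophages with at least 200 C1q UMIs per 10000, a limit chosen after the data were seen, held 100.1 and 133 CPM of the same genes. These high-C1q macrophages, 2146 control and 2061 knockdown cells, are described beside the whole class. Of the kept macrophages, 0% of control and 16.5% of knockdown cells exceeded Scrublet's own doublet threshold. The shares were 0% and 30.4% below the C1q limit, and 0% and 0.776% in high-C1q macrophages. The part of such cells in the ratios of the whole class was not tested. In T cells the sum was 1003 and 700.2 CPM.

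UMIs of all 39 members were found in every class, and Ifitm3, Bst2 and Ifi27l2a were the 3 most abundant in the leukocyte classes taken whole. Ifitm3, which hinders virus entry, stood at 1562 and 1719 CPM in macrophages. Its level was 3376 and 4721 CPM in monocytes, 599.9 and 610.1 CPM in T cells, and 1389 and 1602 CPM in tumour-like cells. Bst2, the tetherin that holds budding virus at the cell surface, was at 1367 and 1542 CPM in macrophages, 744 and 818 CPM in monocytes, 599 and 740.4 CPM in T cells, and 1144 and 1502 CPM in tumour-like cells. Ifi27l2a was uneven among the classes, with 889 and 798 CPM in macrophages, 2283 and 2784 CPM in monocytes, 738 and 914 CPM in T cells, but 115 and 124 CPM in tumour-like cells. The median member was at 75.6 CPM in control macrophages, 106 CPM in monocytes, 54.96 CPM in T cells and 43.1 CPM in tumour-like cells, and at 99.5, 87.6, 50.4 and 51.6 CPM in the knockdown library.

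**Figure D1:**
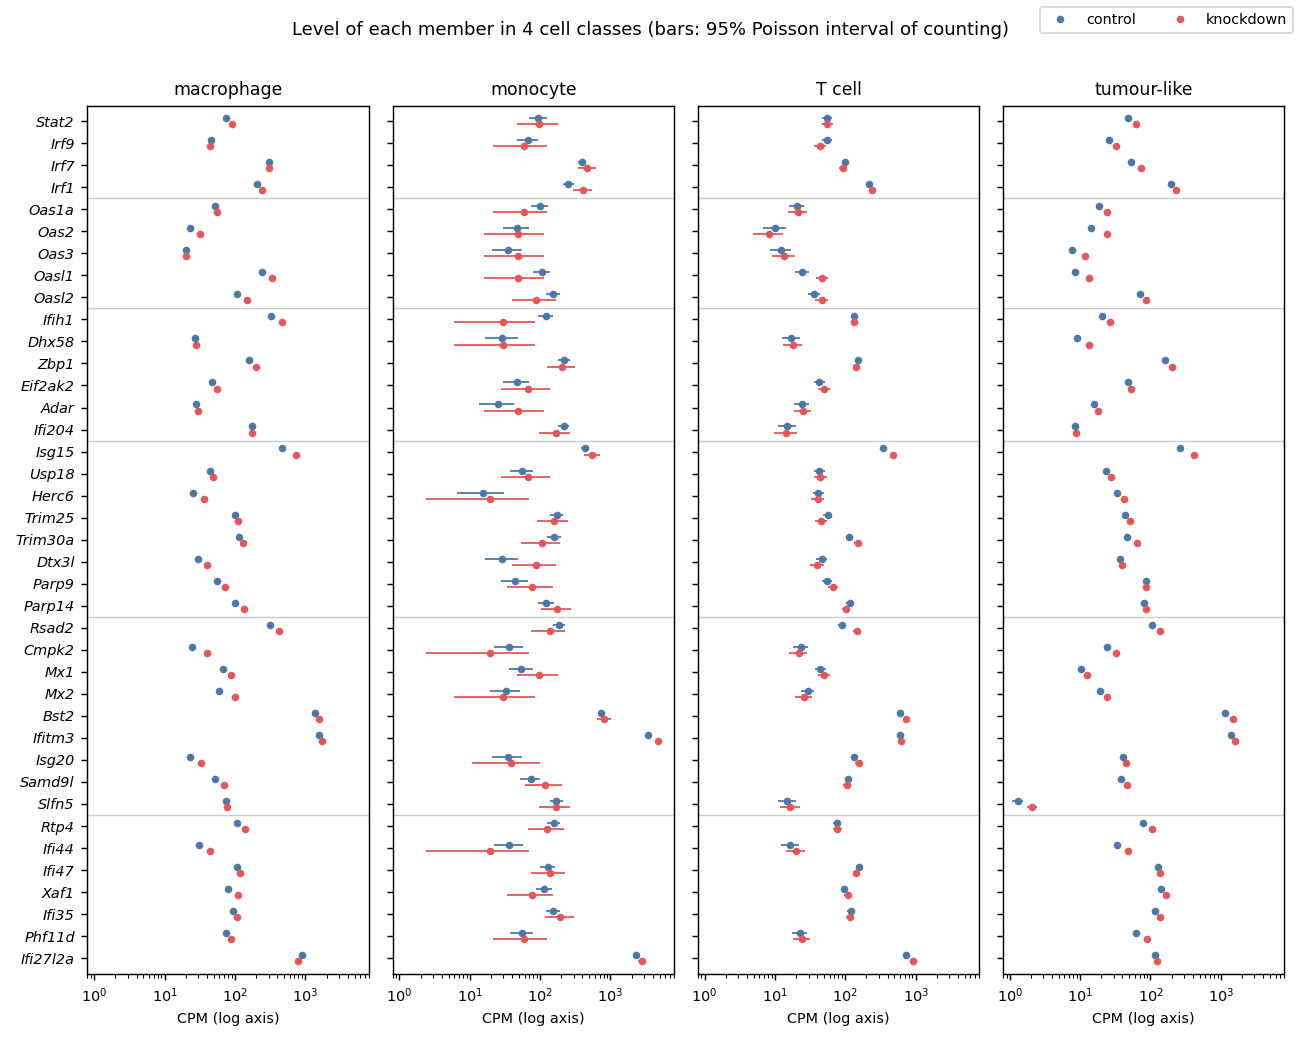
Level of each of the 39 members in macrophages, monocytes, T cells and tumour-like cells, in CPM on a log axis, with 1 point per library and bars for the 95% Poisson interval of counting. Ifitm3 and Bst2 lie near the right edge in every class, Oasl1 and Slfn5 are far lower in tumour-like cells than in macrophages, and the wide bars of the monocytes reflect 144 and 39 cells.

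Monocytes had the highest level of most members. In the control library 22 of the 39 members were highest in monocytes, 9 in macrophages, 5 in T cells and 3 in tumour-like cells. Over all genes measured in that library the shares were 21.1%, 14.8%, 29.9% and 34.2%. In the knockdown library the counts were 21, 10, 3 and 5, against 24%, 16.3%, 27.5% and 32.1% of all genes. The highest class was the same in both libraries for 26 members. The same share over all genes was not computed, so this count is not a result about the members. With 39 knockdown monocytes the order between monocytes and macrophages is within counting error for many members.

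Oasl1, Ifih1, Isg15, Rsad2, Mx2 and Bst2 were highest in macrophages in both libraries. Oasl1, an inactive relative of the oligoadenylate synthetases that curbs Irf7, had the steepest gradient of these, with 244 and 339 CPM in macrophages, 24.5 and 47.1 CPM in T cells, and 8.48 and 13.2 CPM in tumour-like cells. Ifih1, the sensor of long double-stranded RNA also called MDA5, was at 328 and 470 CPM in macrophages, 135 CPM in both T cell groups, and 20.8 and 26.9 CPM in tumour-like cells. Isg15, a ubiquitin-like protein, was spread more evenly, with 466 and 749 CPM in macrophages, 344 and 476 CPM in T cells, and 264 and 412 CPM in tumour-like cells. Mx1, Adar and Phf11d were highest in macrophages in the control library only, and Oasl2, Ifi204, Cmpk2 and Rtp4 in the knockdown library only.

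Stat2, Irf9, Irf7, Irf1, Oas1a, Oas2, Oas3, Dhx58, Zbp1, Usp18, Trim25, Parp14, Ifitm3, Slfn5, Ifi35 and Ifi27l2a were highest in monocytes in both libraries. Trim30a, Ifi44, Oasl2, Ifi204, Cmpk2 and Rtp4 were highest there only in the control library, and Mx1, Adar, Eif2ak2, Dtx3l and Samd9l only in the knockdown library. Some margins were small. Dhx58 was at 1.06 times its macrophage level in both libraries, and in the knockdown library Zbp1, Oas1a and Stat2 were at 1.03, 1.05 and 1.07 times theirs. Adar and Dhx58 had fewer than 20 monocyte UMIs over both libraries. Isg20, an exonuclease, and Ifi47, a GTPase of the immunity-related family, were highest in T cells in both libraries. Isg20 was at 132 and 156 CPM there and at 22.7 and 32.4 CPM in macrophages, and Ifi47 at 155 and 144 CPM against 105 and 118 CPM. Herc6, Dtx3l and Samd9l were highest in T cells in the control library, and Trim30a in the knockdown library. Parp9, an ADP-ribose reader and transferase, and Xaf1, a factor that binds the apoptosis inhibitor XIAP, were highest in tumour-like cells in both. Xaf1 was at 139 and 168 CPM in tumour-like cells and 80.97 and 109.7 CPM in macrophages. Eif2ak2 was highest in tumour-like cells in the control library, and Herc6, Ifi44 and Phf11d in the knockdown library.

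Some members were far lower in tumour-like cells than in macrophages. Slfn5, of the Schlafen family, was at 74.95 and 77.3 CPM in macrophages but 1.301 and 2.08 CPM in tumour-like cells, so that its tumour-like level was 1.74% and 2.69% of its macrophage level. Ifi204, a DNA sensor of the AIM2-like family, reached 4.99% and 5.05% of its macrophage level in tumour-like cells and 8.76% and 8.20% in T cells. Free RNA from macrophages was gauged by 9 macrophage genes, which reached at most 1.06% and 1.62% of their macrophage level in tumour-like cells and at most 4.17% and 4.36% in T cells. All 39 members lay above both limits in both libraries. In the other direction, the matrix gauge in T cells reached 37.7% and 23.8% of its tumour-like level. Phf11d in control T cells, at 36.3% of its tumour-like level, lay below that share, and its level in T cells is not shown to be above it. Oas1a, Ifi204, Trim30a, Phf11d and Ifi27l2a have close copies in the mouse genome, so how the authors' counting divided reads among the copies makes their levels uncertain.

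In macrophages of the knockdown library 21 of the 39 members were at least 1.2-fold higher than in the control library and none was at least 1.2-fold lower. Over all 14862 genes measured in the class 34.3% passed the same fold upward and 10.4% downward, so most genes past that fold leaned the same way. At a fold of 1.5 only Isg15, Cmpk2 and Mx2 were higher, 3 of the 39, against 16.7% of all genes, and none was lower, against 2.93%, so the members' share was above that of all genes higher by 1.2-fold and below it at 1.5-fold. The sum over the members was 7703 CPM (7667 to 7739) in control cells and 9066 CPM (9025 to 9107) in knockdown cells, with a ratio of 1.18 (1.17 to 1.18). Their median log2 ratio was 0.29, beside 0.13 for all genes. Scaling by trimmed means (TMM) lowered every log2 ratio of the class by 0.12 and left 16 members higher, against 25.1% of all genes, and 1 lower. Under that scaling the log2 ratio of Irf7, Oas1a, Dhx58, Adar, Ifi204 and Slfn5 turned negative.

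In high-C1q macrophages 22 of the 39 members were at least 1.2-fold higher and none was at least 1.2-fold lower, where 17% of all 13011 genes were higher and 13.2% lower. At a fold of 1.5, 8 members were higher and none lower, against 5.25% and 3.44% of all genes. All 39 log2 ratios were above 0, also under TMM scaling and under the median of ratios, which shifted every log2 ratio by -0.006 and -0.019. They left 22 and 21 members at least 1.2-fold higher, and the shares of all genes under them were not computed. The median log2 ratio was 0.31 for the members and 0.00 for all genes. The members summed to 8049 CPM (8001 to 8097) and 10415 CPM (10352 to 10478), a ratio of 1.29 (1.28 to 1.31). Without Ifitm3, Bst2 and Ifi27l2a, the 3 most abundant, the other 36 members summed to 4076 and 5746 CPM, a ratio of 1.41.

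**Figure D2:**
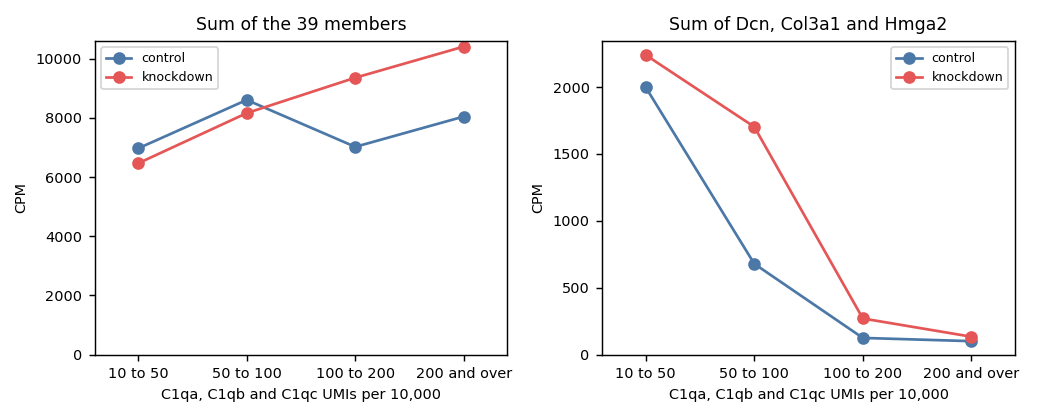
Summed CPM of the 39 members and of the matrix gauge (Dcn, Col3a1 and Hmga2) in macrophages binned by their C1q UMIs per 10000, with 1 line per library. The members are higher in the knockdown library in the upper 2 bins and slightly lower in the lower 2, where the matrix gauge is highest.

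The plot by C1q level shows that the difference between libraries varied with the C1q content of the cells. From 10 to 50 C1q UMIs per 10000 the members summed to 6972 and 6467 CPM, with the matrix gauge at 1998 and 2240 CPM. From 50 to 100 the sums were 8610 and 8165 CPM, with the gauge at 679 and 1703 CPM. From 100 to 200 they were 7023 and 9361 CPM, with the gauge at 124 and 269.6 CPM. In all macrophages below 200 C1q UMIs per 10000, 20 members were at least 1.2-fold higher and 2, Slfn5 and Ifi27l2a, lower, where 41.4% and 17.6% of all genes were. In macrophages of any C1q level with under 5 matrix-gauge UMIs per 10000, 22 members were higher and none lower, against 20.9% and 11.9% of all genes.

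Genes of ISG15 conjugation and related transfer were led by Isg15, which was at 478 CPM (467 to 490) in control and 901 CPM (882 to 920) in knockdown high-C1q macrophages, a log2 ratio of 0.91 (0.87 to 0.96). In all macrophages the log2 ratio was 0.69, from 466 to 749 CPM. Of the 8 genes in the group, 4 were at least 1.2-fold higher in high-C1q macrophages, namely Isg15, Usp18, Herc6 and Parp14, where 17% of all genes were. In all macrophages 5 of the 8 were, against 34.3% of all genes. Usp18, the protease that removes ISG15 and dampens the receptor, was at 43.8 and 54.7 CPM in high-C1q macrophages and at 44.1 and 49.2 CPM, under 1.2-fold, in all macrophages. Herc6, the mouse ligase for ISG15, was at 23.1 and 30.8 CPM in high-C1q macrophages. Herc6 was among the 4 highest ratios of all macrophages, at 25.03 and 36.5 CPM and a log2 ratio of 0.54. Trim25, Trim30a, Dtx3l and Parp9 had log2 ratios from 0.17 to 0.23 in high-C1q macrophages. In all macrophages Dtx3l (0.41) and Parp9 (0.38) were past 1.2-fold, and Trim25 (0.16) and Trim30a (0.18) were not.

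Among the antiviral effectors 8 of 9 were at least 1.2-fold higher in high-C1q macrophages, against 17% of all genes, and Bst2, at 1524 and 1750 CPM, stayed under that fold. In all macrophages the count was 6 of 9, against 34.3% of all genes, and in macrophages below the C1q limit 4 were higher and 1 lower, against 41.4% and 17.6%. In high-C1q macrophages Mx2, a dynamin-like GTPase, was at 64.8 and 119.8 CPM, a log2 ratio of 0.89 (0.76 to 1.02), and its relative Mx1 at 71.5 and 112 CPM, a log2 ratio of 0.65. Rsad2, the radical enzyme viperin, was at 279.8 and 486 CPM in these cells, a log2 ratio of 0.80 (0.74 to 0.86). Cmpk2, the nucleotide kinase encoded beside it, was at 21.8 and 37.3 CPM there, a log2 ratio of 0.78 (0.55 to 1.00), and Ifitm3 at 1536 and 1870 CPM, a log2 ratio of 0.28. In all macrophages Mx2 had the highest ratio of any member, from 58.7 to 99.5 CPM (0.76), Cmpk2 followed Isg15 with 24.7 and 39.6 CPM (0.68), and the log2 ratios of Rsad2, Mx1 and Ifitm3 were 0.43, 0.41 and 0.14.

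The OAS family was uneven. Oasl1 and Oasl2 had log2 ratios of 0.71 and 0.62 in high-C1q macrophages, from 270.2 to 441 CPM and from 112 to 173 CPM. The synthetases Oas1a, Oas2 and Oas3, whose product activates RNase L, had log2 ratios of 0.17, 0.27 and 0.16 in these cells, at levels of 69.2 CPM or less. In all macrophages Oas2, with a log2 ratio of 0.45 (0.29 to 0.62), was close to Oasl1 (0.48) and Oasl2 (0.50). The interval of Oas3 in high-C1q macrophages (-0.10 to 0.41) included 0, and in all macrophages Oas3 was at 20.5 and 19.9 CPM, a log2 ratio of -0.04.

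Sensors of nucleic acid were also uneven. Ifih1 was at 383 and 619 CPM in high-C1q macrophages, a log2 ratio of 0.69 (0.64 to 0.75), and Zbp1, the Z-nucleic acid sensor, at 176 and 219 CPM (0.31). The other 4 sensors were under the 1.2-fold limit in high-C1q macrophages, so 2 of 6 passed it, against 17% of all genes. In all macrophages 2 of 6 passed it as well, against 34.3% of all genes. Eif2ak2, the kinase PKR, had the lowest ratio of any member there, with 48.98 and 50.3 CPM and a log2 ratio of 0.04 (-0.13 to 0.21). Adar, which edits double-stranded RNA, and Dhx58, a helper of Ifih1, had log2 ratios of 0.09 and 0.19, with intervals that included 0. In all macrophages Ifi204 was at 172 and 175 CPM, a log2 ratio of 0.02.

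The signalling genes had a median log2 ratio of 0.21 in high-C1q macrophages. Stat2 was the 1 of 4 past 1.2-fold, at 71.96 and 92.3 CPM, against 17% of all genes. In all macrophages 2 of the 4, Stat2 and Irf1, passed it, against 34.3% of all genes, and counts over 4 genes are too small to set against these shares. Irf9, the partner of Stat2 in the complex, was at 46.9 and 49.9 CPM in high-C1q macrophages, a log2 ratio of 0.09 (-0.08 to 0.26), and in all macrophages it was at 45.9 and 44.1 CPM (-0.06). Irf7, the factor that amplifies interferon production, was at 339 and 401 CPM in high-C1q macrophages but at 302 and 308 CPM in all macrophages, a log2 ratio of 0.03 (-0.02 to 0.08). Irf1 was at 216 and 245 CPM in high-C1q and at 202 and 246 CPM in all macrophages. Of the 7 other induced genes Rtp4, Ifi44, Xaf1 and Phf11d passed the fold in high-C1q macrophages, against 17% of all genes, and Ifi47 and Ifi35 were among the lowest members, with log2 ratios of 0.09 and 0.07. Ifi27l2a differed between the macrophage groups, with 913 and 1048 CPM in high-C1q macrophages, 856 and 557 CPM in macrophages below that limit, and all macrophages at a log2 ratio of -0.16 (-0.19 to -0.13). In macrophages low in the matrix gauge its direction turned, at 929 and 979 CPM and a log2 ratio of 0.08 (0.04 to 0.11).

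**Figure D3:**
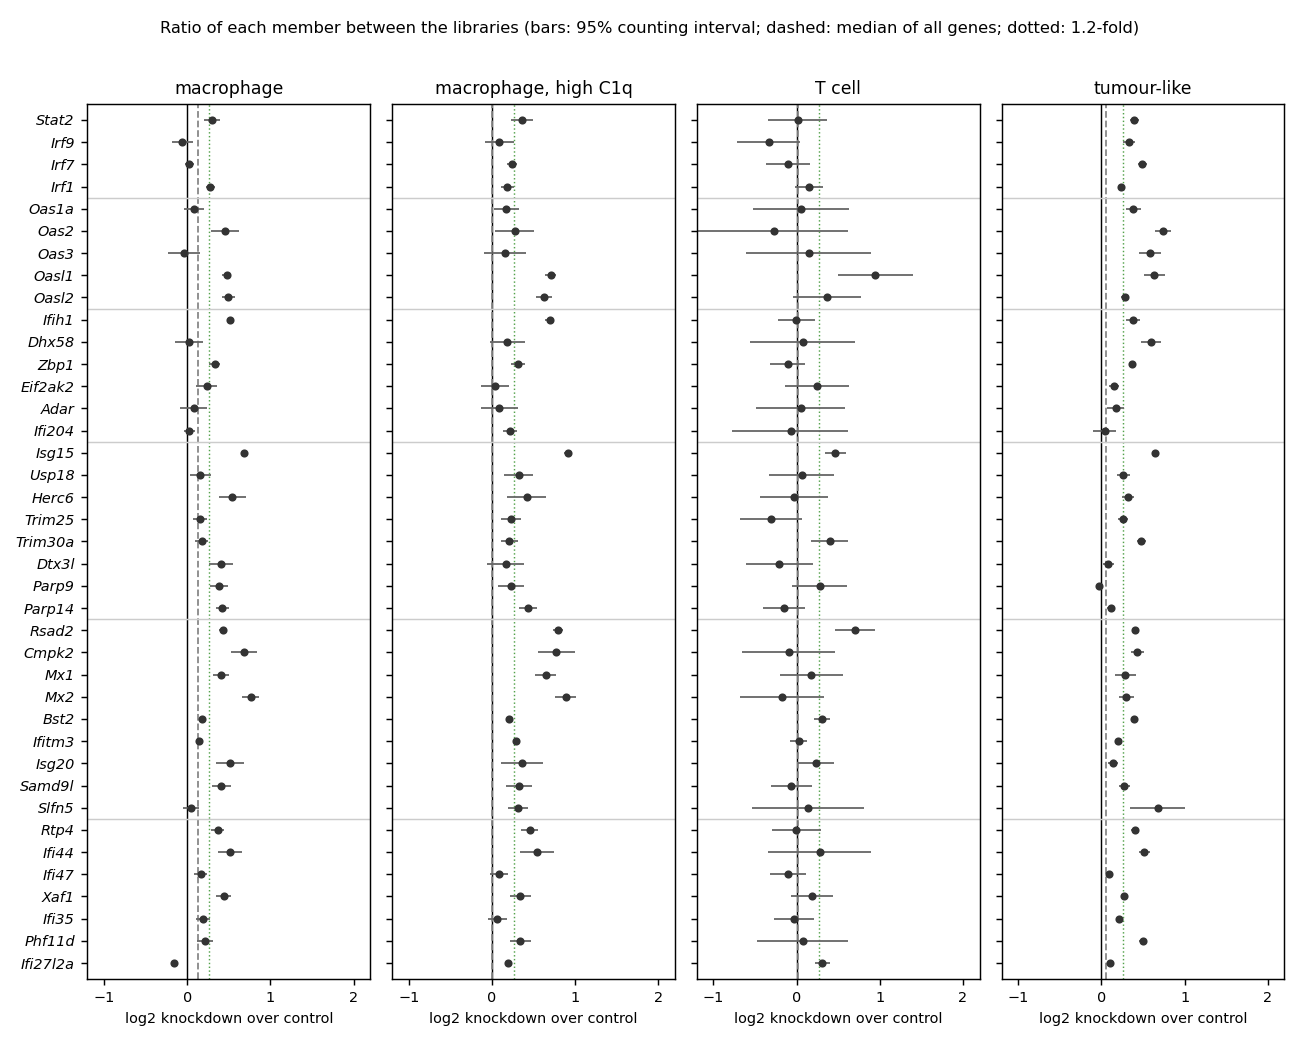
Log2 ratio of knockdown over control for each member in all macrophages, high-C1q macrophages, T cells and tumour-like cells, with 95% counting intervals. The dashed line is the median of all genes and the dotted line 1.2-fold. All points of the high-C1q panel lie above 0, and 38 of 39 do in tumour-like cells, whereas the T cell points lie on both sides.

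Tumour-like cells of the knockdown library had higher levels of 26 of the 39 members at 1.2-fold, and no member was 1.2-fold lower. Over 16809 genes 19.4% were higher and 7.32% lower by that fold. The members summed to 4761 CPM (4748 to 4775) and 5898 CPM (5882 to 5915), a ratio of 1.24 (1.23 to 1.24). The median log2 ratio was 0.32, beside 0.05 for all genes, and 38 members were above 0. TMM scaling left 20 members at least 1.2-fold higher, against 16.3% of all genes, and the median of ratios 19, against 15.6%. Both turned only Ifi204 below 0, beside Parp9. At a fold of 1.5, 6 members were higher and none lower, against 7.14% and 2.88% of all genes. In the same cells 10 macrophage markers summed to 419 and 522 CPM, and 10 monocyte markers to 963 and 1285 CPM. The 9 macrophage genes of the free-RNA gauge summed to 443 and 544 CPM. In contrast, 4 leukocyte markers were at 22.3 and 22.0 CPM and 7 neutrophil markers at 56.8 and 55.5 CPM. The part of RNA from other cells in the ratios was not tested.

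All 5 genes of the OAS family were at least 1.2-fold higher in tumour-like cells, against 19.4% of all genes. Oas2 had the highest ratio of any member, at 14.2 and 23.8 CPM with a log2 ratio of 0.74 (0.65 to 0.84), followed in the family by Oasl1 at 8.48 and 13.2 CPM (0.64) and Oas3 at 7.78 and 11.7 CPM (0.59). Slfn5, at 1.301 and 2.08 CPM, had a log2 ratio of 0.68 (0.35 to 1.01) at a very low level. Isg15 was at 264 CPM (261 to 267) and 412 CPM (407 to 416), a log2 ratio of 0.64 (0.62 to 0.66). Its ratio was the largest among members above 100 CPM.

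Of the 4 signalling genes 3, Stat2, Irf9 and Irf7, passed 1.2-fold there, against 19.4% of all genes, from 47.6 to 62.5 CPM, from 25.9 to 32.6 CPM and from 52.0 to 73.2 CPM, while Irf1 had a log2 ratio of 0.24, from 194 to 229 CPM. Among effectors Rsad2 was at 104 and 138 CPM (0.40) and Bst2 at 1144 and 1502 CPM (0.39), while Mx1 and Mx2 had log2 ratios of 0.29 and 0.30, at 23.9 CPM or less. Zbp1 was at 158 and 204 CPM (0.36). The 4 lowest ratios belonged to Parp9, at 87.5 and 86.0 CPM (-0.02), Ifi204 at 8.59 and 8.82 CPM (0.04), Dtx3l at 37.4 and 39.6 CPM (0.08) and Ifi47 at 129 and 138 CPM (0.09). Parp9 and Dtx3l, whose proteins form a complex, thus stood at nearly equal levels in both tumour-like groups. Whether the ratios of tumour-like cells and macrophages differ was not tested.

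T cell ratios lay on both sides of 0. Of the 39 members 9 were at least 1.2-fold higher and 3 lower, where 20% of 11129 genes were higher and 18% lower, so the members' shares were close to those of all genes upward. The sums were 4598 CPM (4521 to 4675) and 5195 CPM (5100 to 5292), a ratio of 1.13 (1.10 to 1.16). The median log2 ratio was 0.06, beside 0.02 for all genes. In the whole class the intervals of Oasl1, Isg15, Trim30a, Rsad2, Bst2, Isg20 and Ifi27l2a lay above 0, and that of no member lay below it. Isg15 was at 344 CPM (324 to 366) and 476 CPM (447 to 506), a log2 ratio of 0.47 (0.34 to 0.59). Oasl1 was at 24.5 and 47.1 CPM, a log2 ratio of 0.95 (0.50 to 1.40), and Trim30a at 114 and 150.2 CPM (0.40). Rsad2 was at 89.2 and 145 CPM, a log2 ratio of 0.70 (0.46 to 0.94). In T cells with under 5 matrix-gauge UMIs per 10000 it was at 102 and 83.1 CPM, a log2 ratio of -0.29 (-0.64 to 0.05), so its direction turned. In those 520 control and 440 knockdown cells 5 members were at least 1.2-fold higher and 14 lower, against 22.5% and 19.1% of all genes. Intervals lay above 0 for Isg15 (0.33), Oasl1 (0.66), Bst2 (0.36) and Ifi27l2a (0.17). They lay below 0 for Cmpk2, with a log2 ratio of -1.10 (-1.99 to -0.27), Dtx3l at -0.55 (-1.10 to -0.01), Irf7 at -0.40 (-0.72 to -0.08), Parp14 at -0.40 (-0.72 to -0.09) and Ifi47 at -0.35 (-0.61 to -0.10). Trim30a was at a log2 ratio of 0.23 (-0.04 to 0.49) there.

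The members lower in T cells were Irf9, at 55.3 and 43.9 CPM (-0.33), Trim25, a ubiquitin ligase that acts on the RNA sensor Rigi, at 55.97 and 45.3 CPM (-0.31), and Oas2, at 10.1 and 8.32 CPM (-0.27). Dtx3l at 45.9 and 39.7 CPM (-0.21) and Mx2 at 29.2 and 25.9 CPM (-0.17) lay within 1.2-fold. All 5 intervals included 0. In the T cells low in the matrix gauge Dtx3l and Mx2 (-0.57, -1.23 to 0.06) were past 1.2-fold, and the interval of Dtx3l excluded 0. Irf1, among the 5 most abundant members of T cells, was at 217 and 241 CPM. Leaving out T cells by Scrublet's own doublet threshold gave a median log2 ratio of -0.04, and keeping cells that met more than 1 class rule gave 20 members at least 1.2-fold higher, against 25.6% of all genes in that setting.

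Monocytes gave little, since the knockdown library held 39 of them. Adar, Dhx58 and Herc6 had fewer than 20 UMIs over both libraries, at 25.1 and 48.7 CPM, 28.97 and 29.2 CPM, and 15.5 and 19.5 CPM. Of the other 36 members 13 were at least 1.2-fold higher and 11 lower, near the 36.8% and 29.8% of 4742 genes, with a median log2 ratio of 0.07. The sums were 10570 and 12656 CPM, and without Ifitm3, Bst2 and Ifi27l2a they were 4168 and 4332 CPM, a ratio of 1.04 (0.94 to 1.15). Ifitm3 had a log2 ratio of 0.48 (0.34 to 0.63) and Irf1 of 0.70 (0.17 to 1.22), from 251 to 409 CPM. Isg15, at 434 and 555 CPM (0.35), Irf7, at 392 and 467 CPM (0.25), and Ifi35, at 154 and 195 CPM (0.33), had intervals that included 0, as did Rsad2 (-0.44), Ifi204 (-0.39), Trim25 (-0.16) and Zbp1 (-0.09). Below 100 UMIs, and named after their values were seen, Ifih1 was at 120 and 29.2 CPM, a log2 ratio of -2.04 (-4.35 to -0.42), and Dtx3l at 28.97 and 87.6 CPM, a log2 ratio of 1.60 (0.22 to 2.88). In monocytes low in the matrix gauge 15 of 32 measured members were at least 1.2-fold higher and 8 lower, against 34.9% and 34.4% of all genes. There both intervals included 0, with log2 ratios of -1.38 (-3.71 to 0.25) for Ifih1 and 0.98 (-1.10 to 2.67) for Dtx3l. The part that the different neutrophil marker content of these groups has in the values was not tested.

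Single cells were compared after thinning each to 2000 UMIs, which left out 75 control and 166 knockdown high-C1q macrophages and 179 and 184 T cells that were shallower. Thinned high-C1q macrophages held a mean of 16.5 ± 11.3 member UMIs (SD over 2071 cells) in the control and 21.4 ± 12.6 (SD over 1895 cells) in the knockdown library, with medians of 14 and 19. The lower quartile was 8 and 12 UMIs and the upper quartile 21 and 28. Over all macrophages of that depth the difference was smaller, with means of 16.3 ± 11.5 and 19.1 ± 12.1 (SD over 3304 and 3455 cells) and medians of 13 and 16. Tumour-like cells held 10.1 ± 7.05 and 12.5 ± 8.18 UMIs (SD), with medians of 9 and 11. T cells held medians of 7 in both libraries.

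**Figure D4:**
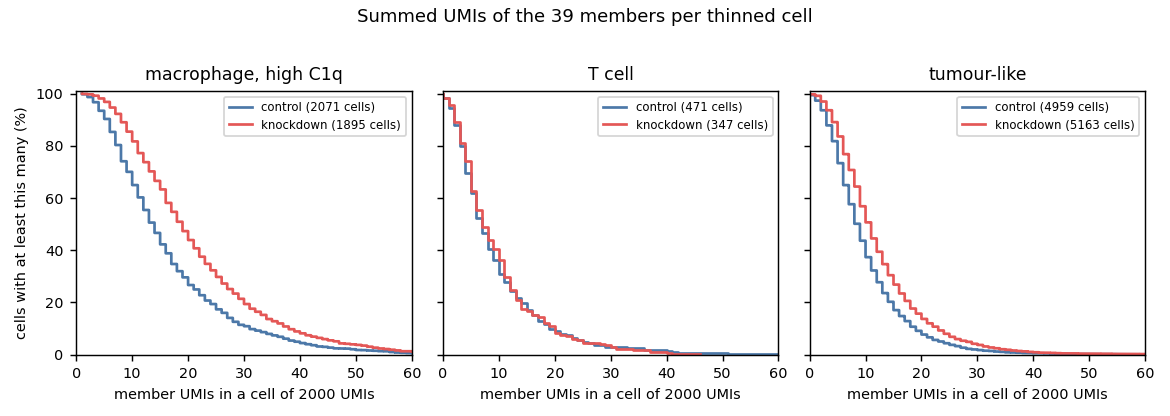
Share of cells with at least a given number of UMIs from the 39 members, after each cell was thinned to 2000 UMIs, with 1 line per library in high-C1q macrophages, T cells and tumour-like cells. The knockdown line lies to the right along its length in high-C1q macrophages and tumour-like cells, and the T cell lines overlap.

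The share of thinned cells with at least 30 member UMIs was 11.4% (10.1 to 12.8, exact binomial interval) and 21.4% (19.5 to 23.3) in high-C1q macrophages, but 11.7% (10.6 to 12.8) and 15.98% (14.8 to 17.2) in all macrophages. In tumour-like cells it was 1.96% and 4.13%, and in T cells 2.97% (1.63 to 4.94) and 3.75% (2.01 to 6.32). Isg15 was detected in 46.0% of thinned control and 66.1% of thinned knockdown high-C1q macrophages, or 66.5% and 79.5% before thinning. Oasl1 was detected in 29.3% and 44.0% of them and Rsad2 in 25.1% and 39.1%. Over all macrophages Isg15 was detected in 43.9% and 59.9%, Oasl1 in 27.8% and 36.3%, and Rsad2 in 25.6% and 35.6%. In tumour-like cells Isg15 was detected in 31.1% and 42.3% after thinning. In T cells it was detected in 36.1% and 37.5%, with intervals that overlap, and Rsad2 in 12.1% and 11.5%, which goes against the order of its CPM.

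Genes upstream of the members were taken from a list of 29 interferons, receptors, kinases, sensors, adaptors and negative regulators. Ifnb1 was at 31.5 CPM (29.2 to 33.9) in control and 60.8 CPM (57.5 to 64.3) in knockdown macrophages, a log2 ratio of 0.95. In high-C1q macrophages it was at 38.6 and 87.8 CPM, a log2 ratio of 1.19 (1.03 to 1.35). In tumour-like cells it was at 0.350 and 0.839 CPM, which is 1.11% and 1.38% of the macrophage level, near the 1.06% and 1.62% that the free-RNA gauge reached. T cells held 3 and 1 of its UMIs and monocytes none.

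Of the 27 listed genes measured in macrophages 5 were at least 1.2-fold higher (Ifnb1, Ifna2, Ifng, Rigi and Socs1) and 3 lower (Mavs, Tlr7 and Myd88), where 34.3% and 10.4% of all genes were. In high-C1q macrophages the counts were 4 and 1 of 27, against 17% and 13.2% of all genes, and in T cells 7 and 1 of 24, against 20% and 18%. In tumour-like cells they were 3 and 0 of 26, against 19.4% and 7.32%, and in monocytes 5 and 9 of 19, against 36.8% and 29.8%. Ifng, the T cell interferon, was at 419 and 562 CPM in T cells (0.42) and at 0.398 and 0.689 CPM in tumour-like cells (0.79). In macrophages it was at 1.23 and 4.79 CPM (1.96), where 6 NK cell markers summed to 7.24 and 25.2 CPM and 11 T cell markers to 18.7 and 30.9 CPM, and their part in it was not tested. High-C1q macrophages held 9 and 12 Ifng UMIs, a log2 ratio of 0.82 (-0.55 to 2.25). Rigi, a sensor of short RNA, was at 42.1 and 64.4 CPM in macrophages (0.61) but at 40.3 and 44.9 CPM in high-C1q ones (0.15). Irf8, a lineage factor of myeloid cells, was at 128 and 195 CPM in T cells (0.61). In monocytes Ifngr1 was at 178 and 312 CPM (0.81), Jak1 at 155 and 263 CPM (0.77) and Socs3 at 214 and 136 CPM (-0.65), each from few UMIs. Trex1, a nuclease that removes cytosolic DNA, had 0 UMIs in every class of both libraries. This does not show that it is absent, since the annotation used to assign reads is not given.

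Within each library, macrophages that carried Ifnb1 also had more of some members. At least 1 Ifnb1 UMI was found in 158 of the control high-C1q macrophages (7.36%) and 303 of the knockdown ones (14.7%). The members summed to 11029 CPM in control cells with Ifnb1 and 7766 CPM in those without it, and to 13180 and 9851 CPM in the knockdown library. Over all macrophages 232 control cells (6.02%) and 470 knockdown cells (10.7%) carried Ifnb1, with member sums of 11570 against 7395 CPM and 12252 against 8587 CPM. Cells with Ifnb1 were deeper, with medians of 6772 against 5790 UMIs and 5371 against 4516 UMIs in high-C1q macrophages, and 6504 against 5316 and 4999 against 3781 UMIs in all macrophages. Cells were split by a measured gene here, so the values are a description within each library.

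**Figure D5:**
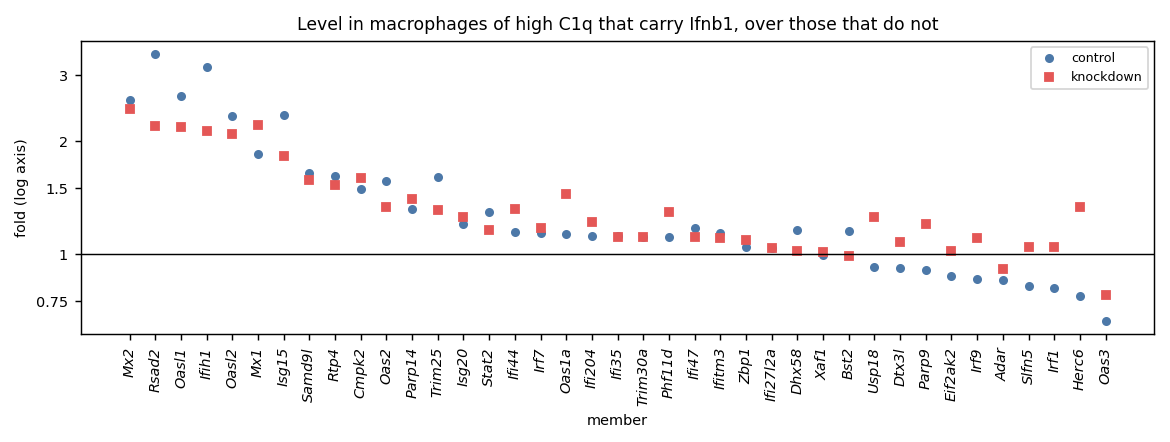
Fold of each member's CPM in high-C1q macrophages with at least 1 Ifnb1 UMI over those with none, on a log axis, with 1 point per library, ordered by the smaller of both folds. Mx2, Rsad2, Oasl1, Ifih1 and Oasl2 are at least 2-fold higher in both libraries, and most members lie near 1.

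At least 1.5-fold higher in high-C1q macrophages with Ifnb1 were 11 of 39 members of the control library and 10 of the knockdown one, against 4.04% and 2.05% of all genes with at least 100 UMIs. The 9 members common to both were Oasl1, Oasl2, Ifih1, Isg15, Rsad2, Mx1, Mx2, Samd9l and Rtp4. Over all macrophages 11 and 8 members passed that fold, against 3.42% and 2.53% of all genes, and the 8 common to both were these without Samd9l. Among high-C1q macrophages Rsad2 was at 790 CPM in control cells with Ifnb1 and 231 CPM in those without, and at 889 and 404 CPM in the knockdown library. Ifih1 was at 1015 and 323 CPM in the control and 1107 and 519 CPM in the knockdown library. Isg15 was at 1008 and 428 CPM and at 1446 and 789.9 CPM. Among the same cells Bst2 was at 1730 and 1504 CPM in the control and 1731 and 1754 CPM in the knockdown library, and Irf9 at 40.8 and 47.5 CPM and at 54.2 and 49.1 CPM. Among high-C1q macrophages with no Ifnb1 UMI, Oasl1 stood at 237 and 368 CPM and Mx2 at 56.99 and 96.4 CPM, control value first. Isg15, Rsad2 and Ifih1 were also higher in such knockdown cells, and all 39 members summed to 7766 and 9851 CPM. The share of all genes higher in such cells was not computed. A cell with no Ifnb1 UMI is not shown to lack Ifnb1 RNA, and the part of Ifnb1 in these differences was not tested.

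The response element in the promoter did not sort the ratios the same way in each class. In tumour-like cells the 11 members with a match had a median log2 ratio of 0.39 and the 17 without one 0.28. In T cells the medians were 0.15 and -0.03. In high-C1q macrophages they were 0.28 and 0.33, and in all macrophages 0.18 and 0.41. Isg15, whose 3 overlapping matches are printed above, had the highest ratio of high-C1q macrophages, while Bst2, with 2, was at 0.20, and Oasl1, with none in its window, was at 0.71. These medians rest on the 28 members with an entry, and no match says only that these letters are not in the window.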

How the data were processed

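Single-cell RNA of 2 tumours was counted as UMIs per gene and cell. The deposited counts are whole numbers without normalisation, and per the file headers Cell Ranger 6.1.0 wrote them, whereas the submitters' processing notes name 3.1.0. Barcodes and gene names are other columns of the deposited files. The genome build and annotation are not given in the sources used here. The control library held 11977 barcodes with 165824226 UMIs and the knockdown library 12853 with 138402860.

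Cells with under 200 detected genes or over 20% mitochondrial UMIs were left out. Doublets were removed by Scrublet score rank at 0.8% per 1000 cells (1148 and 1322), which left 10662 and 11450 cells. Scrublet's own threshold marked 9.09% and 21.8% of barcodes. Cells that met more than 1 class rule (148 and 179) or no rule (904 and 1146) stayed outside the classes.

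UMIs were summed per class and library, and ratios were taken over genes with at least 20 UMIs in both libraries together. CPM carry exact Poisson intervals, ratios exact conditional intervals and shares exact Clopper-Pearson intervals, all at 95%. No test was run. The ratio script was tested on simulated counts. Named with values are, per class, the 4 highest and 4 lowest ratios among members with at least 100 UMIs, the 5 most abundant members, members by highest class, members under 20 UMIs, and listed pathway genes past 1.5-fold. Members and lists were chosen with earlier results of these data known, and further genes were named after their values were seen. Alternatives were TMM factors (edgeR 4.0.16 in R 4.3.3, used for scaling only), a median of ratios, equal weight per cell, other doublet and class rules, other minimums and other folds. Scripts ran in Python 3.11.15 with pandas 2.3.3, scipy 1.17.1, numpy 2.4.6 and scanpy 1.11.5.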

Additional observations from a re-analysis of the deposited data

Results flagged for a closer look

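Ifih1 had counting intervals on opposite sides of 0 in different classes. Its log2 ratio was 0.52 in macrophages and 0.38 in tumour-like cells but -2.04 in monocytes, where 39 knockdown cells held 3 of its UMIs. In monocytes low in Dcn, Col3a1 and Hmga2 its log2 ratio was -1.38 (-3.71 to 0.25), an interval that included 0. The difference between the classes was not tested.

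Ifi27l2a likewise pointed in opposite directions, with log2 ratios of 0.29 in monocytes, 0.31 in T cells and 0.11 in tumour-like cells but -0.16 in macrophages. In high-C1q macrophages its log2 ratio was 0.20 and in those below that limit -0.62, which held more RNA of Dcn, Col3a1 and Hmga2. In macrophages of any C1q level low in these 3 genes the log2 ratio of Ifi27l2a was 0.08 (0.04 to 0.11), so its direction turned. The difference between the classes was not tested.

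Kept cells that met no class rule entered no comparison, yet they carried the members too. Their summed level was 6149 CPM in the knockdown library and 5007 CPM in the control library, from 1146 and 904 cells.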

How the results depend on the processing

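Of 146 values under other settings, 102 were labelled as unchanged, 36 as moved and 8 as changed in sign. Counts were unchanged within 1.5 times of the reported count, and summed ratios within their counting interval. The band for a median ran from the median of the members' lower bounds to that of their upper bounds. It is not a counting interval of the median, and it was wide in T cells (-0.32 to 0.45) and monocytes (-1.13 to 0.98). The cause was not tested where the setting itself does not give it. In macrophages TMM scaling gave a median log2 ratio of 0.17 and a summed ratio of 1.08, and the median of ratios 0.14, 1.06 and 13 members at least 1.2-fold higher, against 23.2% of all genes. Their summed ratio was 1.19 with equal weight per cell, 1.22 without doublet removal, 1.27 with Scrublet's own threshold and 1.198 with stricter class limits. It was 1.29 with at least 200 C1q UMIs per 10000 and 1.27 in cells low in the matrix gauge, both chosen after seeing the data. At 1.5-fold 3 members were higher, against 16.7% of all genes.

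In tumour-like cells the summed ratio was 1.196 with TMM, 1.19 with the median of ratios, 1.23 with equal weight and 1.22 with stricter limits, and 16 members were higher at 1.3-fold and 6 at 1.5-fold, against 13.2% and 7.14% of all genes. Leaving out cells with a Krt16 UMI, chosen after seeing the data, moved none of its 3 values.

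In T cells the summed ratio was 1.06 with equal weight, 1.05 with Scrublet's own threshold, 1.21 with cells of more than 1 class and 1.04 in cells low in the matrix gauge. Their median log2 ratio turned to -0.041 with Scrublet's own threshold and -0.13 in cells low in the matrix gauge. Counts of higher members were 14 without doublet removal, 20 with cells of more than 1 class, 5 in cells low in the matrix gauge, 4 at 1.3-fold and 2 at 1.5-fold, against 19.1%, 25.6%, 22.5%, 12.0% and 5.56% of all genes.

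In monocytes the median log2 ratio turned to -0.048 with TMM, -0.27 with the median of ratios, -0.37 with equal weight, -0.053 without doublet removal and -0.023 without cells that carry a dendritic or neutrophil marker. Their summed ratio was 1.11 with TMM, 0.95 with the median of ratios, 1.04 with equal weight, 1.44 with stricter limits, 1.298 without those marker cells and 1.41 in cells low in the matrix gauge. Counts were 5 of 36 members with the median of ratios and 5 of 36 at 1.5-fold, against 20.5% and 20.6% of all genes, 6 of 36 with equal weight, against 34.7%, and 5 of the 12 members with at least 100 UMIs, against 23.1%.

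No paired analysis was possible because each group has 1 library. Depth and cell number limit the monocytes and the rare members. A difference between tumours unrelated to the knockdown cannot be told apart from one due to it.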
